A study of Homo sapiens with 6 samples.

Results

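Nucleolar ribosome biogenesis factors were followed in KMS11 cells, a human line of multiple myeloma, which is a cancer of antibody-secreting plasma cells. The factors are 37 genes taken by symbol from a list of rRNA synthesis, rRNA modification and ribosome assembly proteins. The list was chosen with earlier results of these data known. All 37 were found among the 17918 genes of the table. CRIP1, a small LIM domain protein, was knocked down by short hairpin RNA (shRNA) in 3 libraries. The other 3 came from cells with a scramble shRNA, whose genotype is labelled WT. RNA was sequenced from total RNA of untreated cells, and the series asks what lowering CRIP1 does in myeloma. The labels do not say how many hairpins or clones were used, or whether the 3 libraries of a group came from separate cultures, and the p-values below therefore reflect the spread among these samples alone, which may be technical.

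Ribosomes are assembled in the nucleolus. RNA polymerase I copies the ribosomal genes into one long precursor, small nucleolar ribonucleoproteins (snoRNPs) guide chemical modification of its bases and sugars, and separate sets of factors fold, cut and export the small and the large subunit. Plasma cells and their tumours make large amounts of secreted protein, and the transcription factor MYC is known to drive many of these genes.

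CRIP1 checked the labels, with 130.1 ± 3.71 TPM in CRIP1 shRNA libraries and 3097 ± 276 TPM in scramble libraries (SD, n = 3 each). TPM is a transcript level corrected for gene length and library size. Totals were 16971454 to 18005318 estimated counts per library, and a nucleolar factor had 250 to 21015 of them in a library, so none was near the limit of detection. Of 9 tested plasma cell markers 3 were higher (CD38, TNFRSF17 and IRF4) and 6 lower (JCHAIN, MZB1, PRDM1, XBP1, POU2AF1 and SDC1), and they summed to 3932 to 4190 TPM in CRIP1 shRNA and 8553 to 9008 TPM in scramble libraries. Most of that difference was JCHAIN, the joining chain of secreted antibodies, with 1789 ± 158 TPM in CRIP1 shRNA and 6443 ± 223 TPM in scramble libraries. Without JCHAIN the sums were 2207 to 2290.2 TPM in CRIP1 shRNA and 2352 to 2392 TPM in scramble libraries. Markers of other cells moved with the groups. Of 10 tested erythroid markers all 10 were higher, with sums of 694 to 697 TPM in CRIP1 shRNA and 0.15 to 0.23 TPM in scramble libraries. Of these, HBA1, HBA2, HBE1, HBG1, HBG2, GATA1, ALAS2 and RHAG had 0 counts in every scramble library. HBB was not tested and had 1 count in a single CRIP1 shRNA library and 0 counts in the others. Of 8 epithelial and stromal markers 6 were higher, KRT18 and KRT8 among them, and 2 lower, with sums of 89.8 to 95.1 against 12.9 to 15.6 TPM, and 2 of 9 T, NK and myeloid markers were tested (LYZ and CD33) and both were higher, the 9 summing to 8.0 to 9.19 against 0.88 to 1.24 TPM. The part of these cells or genes in the changes below was not tested, and in bulk RNA fewer cells of a type and less RNA per cell cannot be told apart.

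Most nucleolar factors that changed were lower after CRIP1 knockdown, and all but BOP1 and NOP16 changed by less than 2-fold. Of the 37, 24 fell, 4 rose and 9 did not pass the test (edgeR's quasi-likelihood test, adjusted p under 0.05 over all 12612 genes tested). BOP1, NOP16 and NHP2 fell the most, and DDX21 rose the most. The background was broad: 77.6% of all genes tested changed, 39.4% higher and 38.1% lower. The share of factors called, 75.7%, lay near that background, while 64.9% of them were lower and 10.8% higher. Their median log2 fold change was -0.22, beside 0.01 over all genes, and they ran from -1.35 to 0.48. In TPM the groups did not overlap for 25 of the 37, against 78.5% of all genes tested. At 2-fold or more, 2 factors were lower and 0 higher, against 8.06% and 10.0% of all genes.

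Small changes took their sign from the scaling. For genes of at least 10 TPM in scramble, the fitted log2 fold change lay a median of 0.14 below the log2 ratio of mean TPM (median difference -0.14), so a factor with equal TPM in both groups has a slightly negative fitted change. On log2(TPM + 1), tested with limma, 16 factors fell and 9 rose (median -0.08, beside 0.12 over all genes). With a trend on GC content removed from each library, 25 fell and 3 rose (median -0.35, beside -0.08). Set against the median of all genes, the factors' median differed by -0.23 on the edgeR scale, -0.20 on log2(TPM + 1) and -0.27 with the GC trend removed. Of the 24 factors that fell, 16 kept direction and call in each of 16 other settings: POLR1A, NPM1, NCL, NHP2, HEATR1, WDR43, RRP9, NOP14, NAT10, LTV1, BOP1, NOP2, NOP16, RRP1, EBNA1BP2 and MRTO4. Of the 4 that rose, DDX21, NOLC1 and WDR12 did so. The remaining 18 factors changed call or sign in at least 1 setting.

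**Figure D1:**
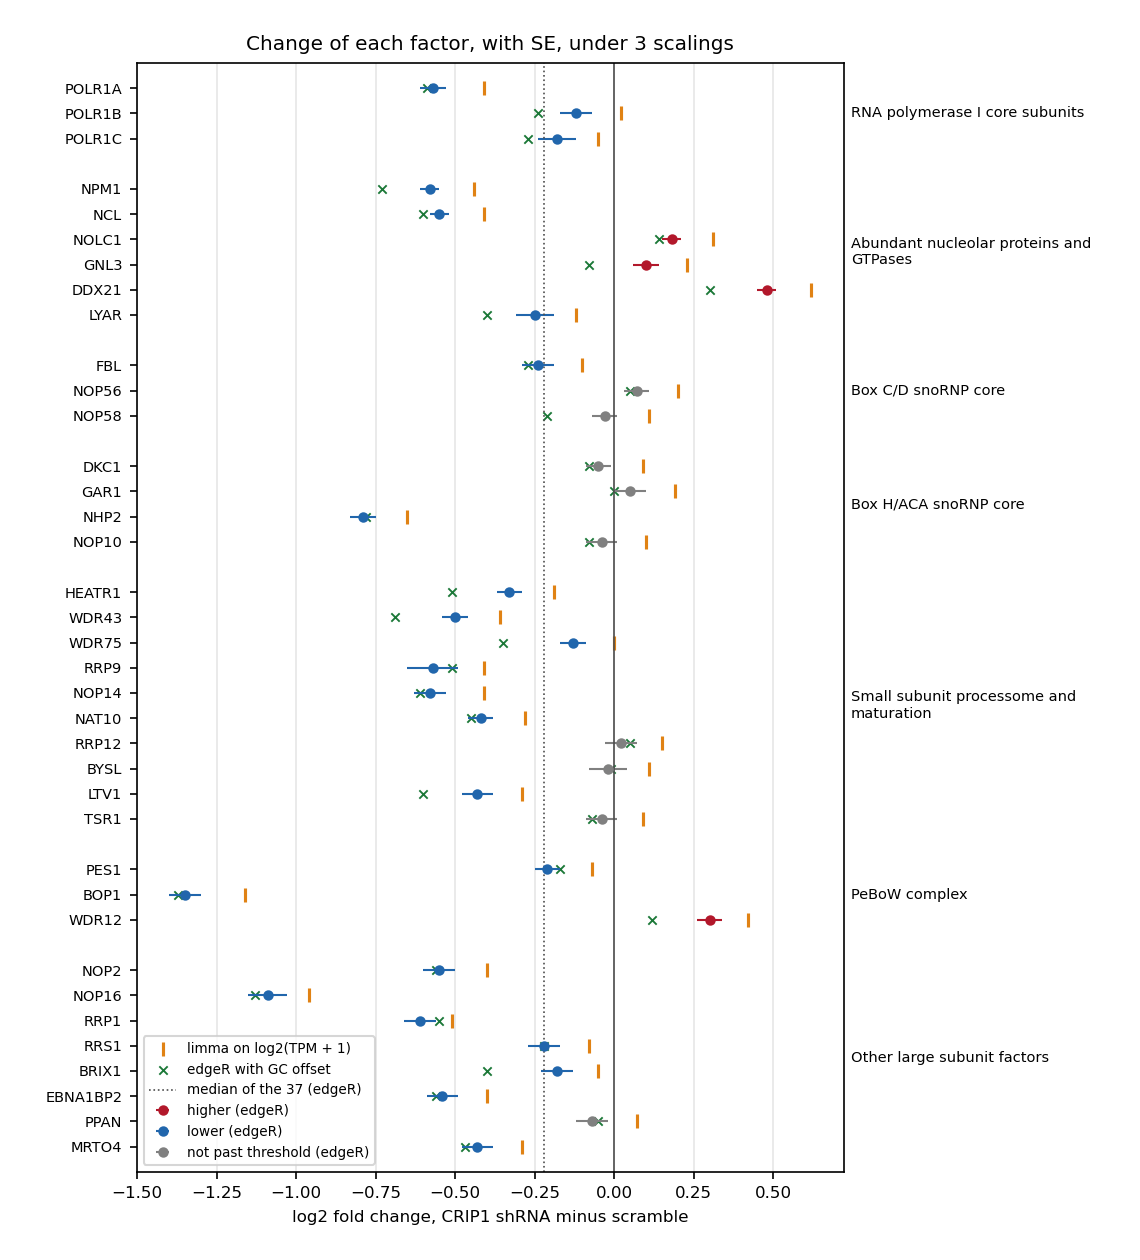
Log2 fold change (CRIP1 shRNA minus scramble) of each of the 37 factors, grouped by role, as circles with SE from edgeR, coloured by call, with the value on log2(TPM + 1) as a vertical bar and with the GC trend removed as a cross. BOP1 and NOP16 lie below -1 in the edgeR fit, DDX21 lies highest at 0.48, and the TPM scale shifts the factors to the right.

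**Figure D2:**
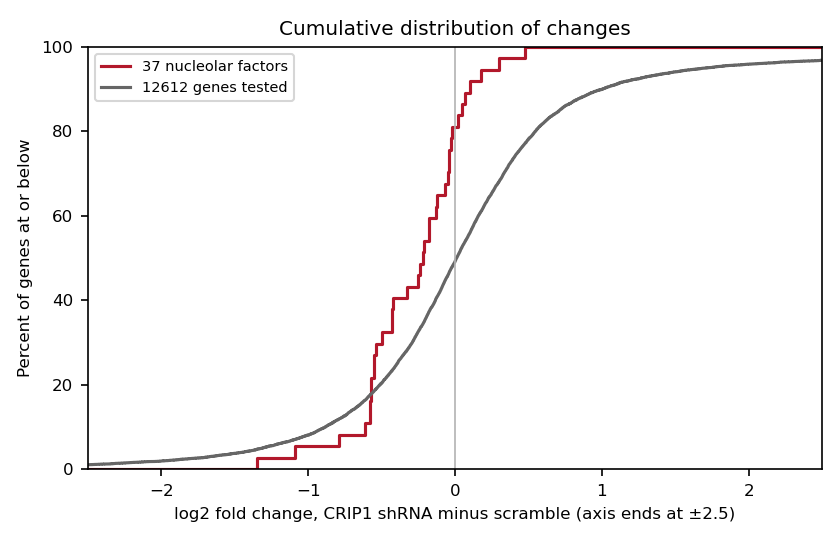
Percent of genes at or below each log2 fold change (CRIP1 shRNA minus scramble, edgeR), for the 37 factors and for the 12612 genes tested. The curve of the factors lies to the left through the middle and at the upper end (medians -0.22 and 0.01) and to the right at the low end, where no factor lies below -1.35.

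The factors are abundant transcripts. Their median level in scramble was 75.1 TPM, beside 17.8 TPM over all genes tested, and mean levels ran from 12.4 TPM (POLR1B) to 1945 TPM (NPM1). Together the 37 made up 0.540% ± 0.00804 of all TPM in CRIP1 shRNA and 0.629% ± 0.0102 in scramble libraries (SD, n = 3 each). The sum was 5483, 5324 and 5387 TPM in CRIP1 shRNA replicates 1 to 3, and 6405, 6211 and 6257 TPM in scramble replicates 1 to 3, with no overlap. The 3 most abundant factors, NPM1, NHP2 and NCL, held nearly all of that difference in TPM. They summed to 2233 ± 27.4 TPM in CRIP1 shRNA and 3117 ± 45.6 TPM in scramble, whereas the other 34 summed to 3165 ± 54.6 and 3174 ± 60.7 TPM, which overlapped. In these 34, higher levels of such genes as DDX21 and NOLC1 offset lower levels of others. These sums are in TPM, and for genes of at least 10 TPM the fitted change lay a median of 0.14 below the TPM ratio. A near-equal sum in TPM is therefore not a near-equal level on the fitted scale.

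**Figure D3:**
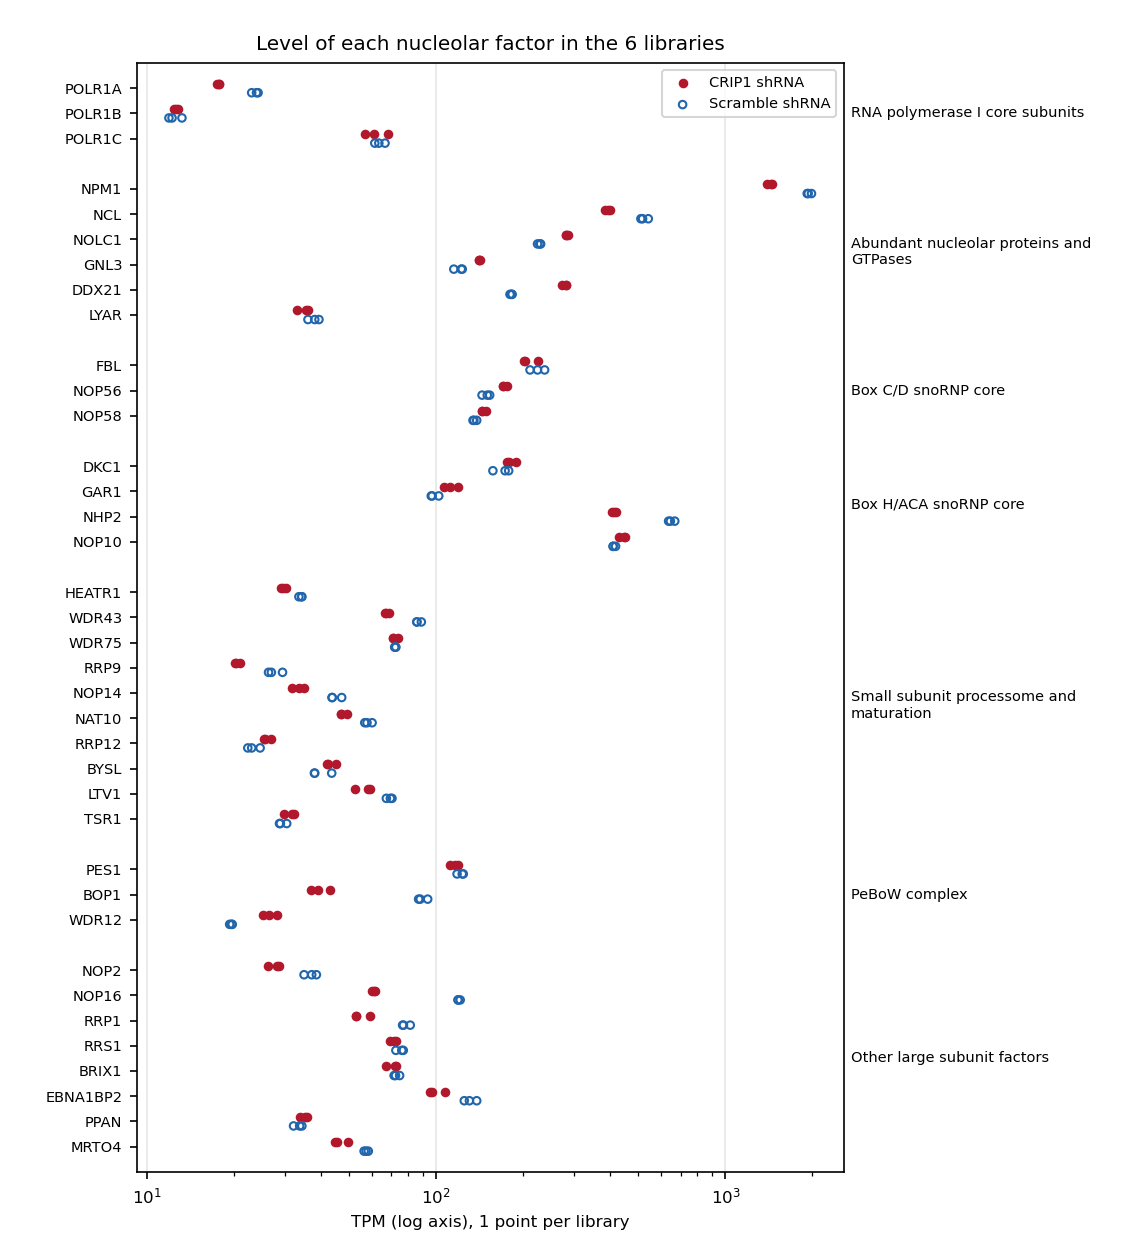
Level of each factor in TPM on a log axis, 1 point per library, with CRIP1 shRNA filled and scramble open. The groups separate clearly for NPM1, NCL, NHP2, BOP1, NOP16 and DDX21 and overlap for genes such as POLR1C, FBL and WDR75.

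Promoters were searched for a letter pattern. The pattern searched was CACGTG, the E-box bound by MYC with MAX and by other factors of their class, which reads the same on both strands and was counted over 250 bases before to 50 after the start site in RefSeq (GRCh38.p14). The table held a promoter for 32 of the 37 genes, and none for BOP1, NOLC1, RRS1, NOP58 and RRP12. BOP1, which fell most, and NOLC1, which rose, are therefore absent from the counts below. The E-box was in 12 of these (37.5%), against 9.25% of 14265 promoters of genes in the count table and 7.26% of all 35116 promoters. The median GC content of the factors' promoters was 64.5%, against 63.7% over the count table's genes. Of the 12 factors with an E-box, 10 fell, 0 rose and 2 did not pass the test (median log2 fold change -0.43), and of the 20 without one, 12 fell, 3 rose and 5 did not pass (median -0.16). No test was made of this difference. Whether other ribosome assembly genes hold the E-box at a similar share was not tested. The 30 bases around the E-box, in capitals, are shown for the 8 of these factors that fell in every setting, and for NOP10, which has a pair of E-boxes and did not pass the test:
EBNA1BP2 (chr1:43172790-43172819, minus strand): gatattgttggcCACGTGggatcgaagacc
LTV1 (chr6:143843354-143843383, plus strand): gtcctggggctgCACGTGtggtgaggccta
MRTO4 (chr1:19251807-19251836, plus strand): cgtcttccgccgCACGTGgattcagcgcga
NAT10 (chr11:34105602-34105631, plus strand): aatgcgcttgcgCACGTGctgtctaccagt
NOP14 (chr4:2963374-2963403, minus strand): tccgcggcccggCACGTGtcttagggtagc
NOP2 (chr12:6568242-6568271, minus strand): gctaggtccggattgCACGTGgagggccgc
RRP9 (chr3:51941892-51941921, minus strand): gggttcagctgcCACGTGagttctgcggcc
WDR43 (chr2:28894658-28894687, plus strand): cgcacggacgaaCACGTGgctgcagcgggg
NOP10, distal (chr15:34343289-34343318, minus strand): gtagggacactcCACGTGttttagcctgca
NOP10, proximal (chr15:34343130-34343159, minus strand): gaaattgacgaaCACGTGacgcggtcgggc
All but the EBNA1BP2 and distal NOP10 copies lie close to the start site, from 15 bases before it (NAT10) to 35 bases after it (NOP2), and a match is a description of the letters, not evidence of binding.

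MYC itself was at 265, 297 and 276 TPM in CRIP1 shRNA and 222, 218 and 223 TPM in scramble libraries, and rose (log2 fold change 0.18, SE 0.04, adjusted p = 0.000354). MYCN, its relative, fell (11.2 ± 0.685 against 21.7 ± 1.35 TPM; -1.11, SE 0.07), and MYCL, at a low level, rose (1.68 ± 0.201 TPM in CRIP1 shRNA, 0.707 ± 0.155 TPM in scramble; 1.02, SE 0.21). MAX was called lower (-0.24, SE 0.05), but had overlapping TPM values, with 64.7 ± 6.9 in CRIP1 shRNA and 65.1 ± 4.85 in scramble libraries.

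RNA polymerase I transcribes the ribosomal genes, and POLR1A was the one of its 3 listed subunits that fell in every setting. POLR1A, the largest and catalytic subunit, had 17.4, 17.7 and 17.7 TPM in CRIP1 shRNA libraries, against 24.2, 23.0 and 23.9 TPM in scramble libraries. These values did not overlap, and POLR1A fell by 0.57 on the log2 scale (SE 0.04, adjusted p = 2.58e-11). POLR1B, the next largest subunit, had 12.6, 12.4 and 12.8 TPM in CRIP1 shRNA libraries, against 13.2, 12.2 and 11.9 TPM in scramble libraries, which overlapped. Its fitted value was -0.12 (SE 0.05, adjusted p = 0.040), and the adjusted p was 0.0613, 0.0632 and 0.0709 with CRIP1 shRNA replicates 1, 2 and 3 left out in turn and 0.218 without scramble replicate 1. The call was also lost under upper-quartile scaling, the DESeq2 Wald test and the filter at 50 counts, with an adjusted p of 0.000104 to 0.8 over all settings. POLR1C, a subunit shared with RNA polymerase III, fell by 0.18 (SE 0.06) with overlapping TPM values, a call lost without CRIP1 shRNA replicate 3 (adjusted p = 0.0627; range 8.6e-05 to 0.531).

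A scaling factor of the whole library drops out of a ratio of subunits within it, but effects that differ between genes do not. With the GC trend removed, POLR1A went from -0.57 to -0.59 and POLR1B from -0.12 to -0.24. POLR1A over POLR1B was 1.40 ± 0.0245 in CRIP1 shRNA and 1.91 ± 0.0928 in scramble (SD, n = 3 each). Such ratios were taken for all 15 pairs of listed subunits within RNA polymerase I, the box C/D and box H/ACA snoRNPs and the PeBoW complex. With 3 libraries against 3, an exact two-sided permutation test cannot go below p = 0.1, and its smallest adjusted p over the 15 pairs was 0.136. The ratios are given as values, with no call from this test.

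Of 12 other RNA polymerase I genes, 6 fell and 2 rose (median -0.11). On log2(TPM + 1) 3 fell and 3 rose (median 0.02), and with the GC trend removed 9 fell and 2 rose (median -0.22). UBTF, the factor that holds ribosomal genes open for transcription, fell (92.2 ± 3.78 TPM in CRIP1 shRNA, 117 ± 4.62 TPM in scramble; log2 fold change -0.41, SE 0.04). Of the promoter selectivity factor that recruits the polymerase, the subunit TAF1C fell (-0.67, SE 0.06) and the subunit TAF1A rose (0.53, SE 0.11).

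The abundant nucleolar proteins split evenly, 3 lower and 3 higher. NPM1 (nucleophosmin, chromosome 5, 171387116 to 171411137, plus strand, GRCh38 by GENCODE 29), a chaperone of the outer nucleolar layer often mutated in leukaemia, was the most abundant factor. It had 1439, 1396 and 1450.4 TPM in CRIP1 shRNA libraries, against 1984, 1918 and 1933 TPM in scramble libraries, and fell by 0.58 (SE 0.03, adjusted p = 9.09e-13). Every CRIP1 shRNA value lay below every scramble value, with the mean 26.5% lower. GENCODE names 45 NPM1 pseudogenes, and reads shared with these copies could be split by the counting, so its level is less certain. NCL (nucleolin), which binds the rRNA precursor and ribosomal chromatin, had 399, 394 and 384 TPM in CRIP1 shRNA libraries, against 541, 510.1 and 517 TPM in scramble libraries, and fell by 0.55 (SE 0.03). LYAR, a zinc finger protein of proliferating cells, fell by 0.25 (SE 0.06), but its TPM values of the groups overlapped (34.8 ± 1.64 in CRIP1 shRNA and 37.8 ± 1.69 in scramble) and it did not pass on log2(TPM + 1).

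DDX21, an RNA helicase that couples transcription of ribosomal genes to processing of the precursor, was the factor that rose most. It had 281, 273 and 282 TPM in CRIP1 shRNA libraries, against 183, 179.9 and 182 TPM in scramble libraries (log2 fold change 0.48, SE 0.03, adjusted p = 1.79e-11). DDX21 was 1.54 times its scramble TPM and the one factor that rose past a 1.2-fold threshold. NOLC1 (Nopp140), a chaperone of snoRNPs, had 281, 285 and 280.3 TPM in CRIP1 shRNA libraries, against 228, 224 and 229.6 TPM in scramble libraries, and rose by a smaller amount (0.18, SE 0.03). GNL3 (nucleostemin), a GTPase of dividing and stem-like cells, had 141, 142 and 141 TPM in CRIP1 shRNA libraries, against 123, 115 and 122 TPM in scramble libraries. Its fitted value was 0.10 (SE 0.04, adjusted p = 0.0293), and it became -0.08 with the GC trend removed. Leaving out CRIP1 shRNA replicate 2 ended the call (adjusted p = 0.0677), as did leaving out scramble replicate 2 (0.17) or scramble replicate 3 (0.0614). Over all settings its adjusted p was 0.000186 to 0.17.

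Of 6 tested relatives and readthrough genes outside the list, 3 fell and 0 rose. NPM3 fell (56.9 ± 3.62 TPM in CRIP1 shRNA and 119 ± 1.74 TPM in scramble; log2 fold change -1.20, SE 0.06), in the same direction as NPM1. RRP1B fell (-0.87, SE 0.04), as did RRP1. GNL3L, the closest relative of GNL3, fell (-0.40, SE 0.05), and DDX50, that of DDX21, did not pass the test (-0.09, SE 0.05), with 40.3 ± 1.57 and 39.2 ± 0.165 TPM.

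Of the 3 listed core proteins of the box C/D snoRNP, which methylates rRNA sugars, 1 fell and 0 rose. FBL (fibrillarin), its methyltransferase, had 224, 201 and 203 TPM in CRIP1 shRNA libraries, against 237, 224 and 211 TPM in scramble libraries, which overlapped. It fell by 0.24 (SE 0.05, adjusted p = 0.000213) and did not pass on log2(TPM + 1). Its scaffold partners NOP58 (log2 fold change -0.03, SE 0.04) and NOP56 (0.07, SE 0.04) did not pass the test. NOP58 had 149, 144 and 144 TPM in CRIP1 shRNA libraries, against 138, 135 and 134 TPM in scramble libraries, and on log2(TPM + 1) it had 0.11 and passed. FBL over NOP56 was 1.22 ± 0.0862 in CRIP1 shRNA and 1.51 ± 0.0861 in scramble. SNU13, a further core protein, is counted below among small subunit factors outside the list. It was called lower (log2 fold change -0.24, SE 0.06), with overlapping TPM values.

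In the box H/ACA snoRNP, which turns uridines of rRNA into pseudouridine and also stabilises the RNA of telomerase, NHP2 was the one core protein that fell. NHP2 (chromosome 5, 178149460 to 178153967, minus strand), an RNA-binding protein of the complex, had 419.8, 413 and 405 TPM in CRIP1 shRNA libraries, against 645, 668 and 636 TPM in scramble libraries. The groups lay far apart relative to their spread, with the mean 36.5% lower (log2 fold change -0.79, SE 0.04, adjusted p = 2.13e-13). NOP10, the smallest core protein, had 450.2, 428 and 445 TPM in CRIP1 shRNA libraries, against 409, 409 and 417 TPM in scramble libraries, and did not pass the test (-0.04, SE 0.05). DKC1 (dyskerin), the pseudouridine synthase, and GAR1 did not pass either (-0.05, SE 0.04, and 0.05, SE 0.05), although GAR1 and NOP10 were higher on log2(TPM + 1) (0.19 and 0.10). DKC1 passed without scramble replicate 2 (-0.10, adjusted p = 0.0453; range 0.0453 to 0.951).

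Within the complex the order of levels changed. NHP2 was the most abundant of the 4 in scramble libraries, while NOP10 lay above it in every CRIP1 shRNA library. NHP2 over NOP10 was 0.932, 0.966 and 0.909 in CRIP1 shRNA and 1.58, 1.63 and 1.53 in scramble libraries. DKC1 over NOP10 was 0.409 ± 0.00922 and 0.411 ± 0.026, and these values overlapped.

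**Figure D4:**
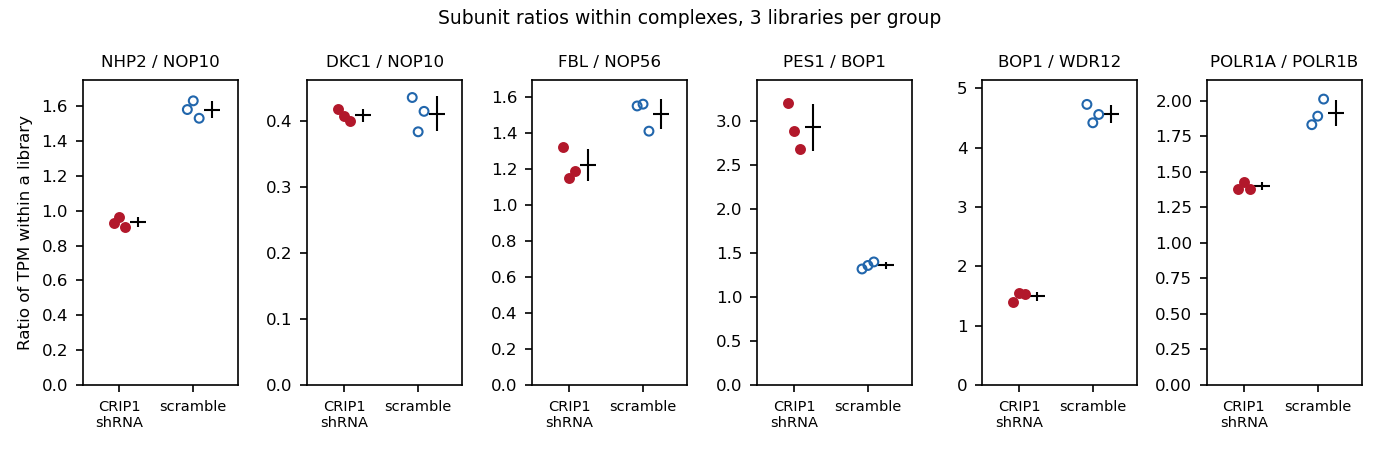
Ratio of TPM between subunits of a complex within each library, for 6 of the 15 pairs, with CRIP1 shRNA at left and scramble at right, and the mean with its SD (n = 3) beside the points. The ratio of NHP2 to NOP10 lies below 1 in the CRIP1 shRNA libraries and above 1.5 in scramble, BOP1 to WDR12 is 1.49 against 4.57, and DKC1 to NOP10 overlaps.

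Factors of the small subunit were lower or did not pass the test. Of 10, 7 fell and 0 rose, with a median of -0.38, and on log2(TPM + 1) 6 fell and RRP12 rose. HEATR1, WDR43 and WDR75 belong to the early complex that binds the precursor and also promotes its transcription. WDR43 fell by 0.50 (SE 0.04; 67.4 ± 0.924 TPM in CRIP1 shRNA, 86.8 ± 1.79 TPM in scramble) and HEATR1 by 0.33 (SE 0.04; 29.7 ± 0.645 against 34.0 ± 0.411 TPM). WDR75 had a fitted value of -0.13 (SE 0.04), but 71.9 ± 1.74 and 72.2 ± 0.374 TPM.

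NOP14, an assembly factor of the processome, the large particle that cuts out the small subunit rRNA, had the largest change of this group. It had 33.6, 34.8 and 31.8 TPM in CRIP1 shRNA libraries, against 43.7, 43.6 and 47.1 TPM in scramble libraries (log2 fold change -0.58, SE 0.05, adjusted p = 5e-10). RRP9, a core protein of the snoRNP that guides those cuts, fell by 0.57 (SE 0.08; 20.4 ± 0.474 against 27.5 ± 1.62 TPM). NAT10, which acetylates cytidines of rRNA, fell by 0.42 (SE 0.04; 47.6 ± 1.40 against 58.1 ± 1.73 TPM). LTV1, a late factor that travels with the exported small subunit, fell by 0.43 (SE 0.05; 56.4 ± 3.50 against 69.0 ± 1.61 TPM). None of these 4 overlapped between groups in TPM.

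RRP12, BYSL and TSR1, which act on late small subunit precursors around their export, did not pass the test (0.02, -0.02 and -0.04). RRP12 had 26.9, 25.4 and 25.5 TPM in CRIP1 shRNA libraries, against 24.6, 23.0 and 22.3 TPM in scramble libraries, and its fitted value turned to -0.01 without CRIP1 shRNA replicate 1 and -0.02 without scramble replicate 3. BYSL turned to 0.04 without scramble replicate 1.

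Of 44 small subunit factors outside the list, 18 fell and 12 rose (median -0.07), against 9 and 20 on log2(TPM + 1) (median 0.06) and 27 and 8 with the GC trend removed. The helicase DHX37, which releases the guide snoRNA, fell furthest (17.5, 16.4 and 15.9 TPM in CRIP1 shRNA, 34.1, 33.7 and 34.4 TPM in scramble; log2 fold change -1.16, SE 0.05). UTP20, a scaffold of the processome, fell by 0.74 (SE 0.05), and FCF1, which carries a nuclease domain, rose (65.8 ± 3.86 against 38.0 ± 2.84 TPM; 0.67, SE 0.05).

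The PeBoW complex, which joins PES1, BOP1 and WDR12 and is needed to process the large subunit rRNA, held both directions. BOP1, the subunit that bridges the others, had 37.0, 38.9 and 43.0 TPM in CRIP1 shRNA libraries, against 93.4, 86.9 and 88.0 TPM in scramble libraries. This was the largest change of the 37, with the mean 55.7% lower (log2 fold change -1.35, SE 0.05, adjusted p = 5.37e-15). PES1 (pescadillo) had 119, 112 and 116 TPM in CRIP1 shRNA libraries, against 124, 118 and 123 TPM in scramble libraries, and fell by 0.21 (SE 0.04), although the groups overlapped and the call was not made on log2(TPM + 1). WDR12 had 26.4, 25.2 and 28.1 TPM in CRIP1 shRNA libraries, against 19.7, 19.6 and 19.3 TPM in scramble libraries, and rose (0.30, SE 0.04, adjusted p = 2.26e-06). BOP1 over WDR12 was 1.49 ± 0.0807 in CRIP1 shRNA and 4.57 ± 0.155 in scramble, and PES1 over BOP1 was 2.93 ± 0.263 and 1.36 ± 0.0392.

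Of the other 8 large subunit factors, 7 fell and 0 rose (median -0.48), and on log2(TPM + 1) 5 fell and 0 rose. NOP16 (chromosome 5, 176383938 to 176388975, minus strand) had 61.1, 61.4 and 60.1 TPM in CRIP1 shRNA libraries, against 121, 119 and 119 TPM in scramble libraries. It fell by 1.09 (SE 0.06, adjusted p = 5.37e-13), with the mean 49.1% lower. RRP1, an early large subunit factor, fell by 0.61 (SE 0.05; 54.9 ± 3.53 against 78.3 ± 2.65 TPM). NOP2, an rRNA cytosine methyltransferase and an old marker of proliferating nucleoli, fell by 0.55 (SE 0.05; 27.6 ± 1.30 against 36.8 ± 1.85 TPM). EBNA1BP2, an assembly factor first found as a partner of a viral protein, fell by 0.54 (SE 0.05; 99.5 ± 6.49 against 131 ± 6.67 TPM). MRTO4, which prepares the site of the ribosomal stalk, fell by 0.43 (SE 0.05; 46.5 ± 2.56 against 57.3 ± 0.946 TPM).

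RRS1, which helps to dock the small 5S particle, and BRIX1 had smaller fitted values (-0.22, SE 0.05, and -0.18, SE 0.05). Their TPM values overlapped, with 71.1 ± 1.67 against 75.1 ± 2.31 and 70.5 ± 3.05 against 72.8 ± 1.70 TPM, and neither passed on log2(TPM + 1). PPAN had 33.8, 35.3 and 35.7 TPM in CRIP1 shRNA libraries, against 33.7, 32.1 and 34.3 TPM in scramble libraries, and did not pass the test (-0.07, SE 0.05). The readthrough gene PPAN-P2RY11 shares sequence with it and was at 5.04 ± 2.06 and 4.97 ± 1.41 TPM.

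Of 51 large subunit factors outside the list, 23 fell and 11 rose (median -0.08), against 16 and 21 on log2(TPM + 1) (median 0.05) and 32 and 11 with the GC trend removed. The helicase DDX54 fell (23.8 ± 1.24 TPM in CRIP1 shRNA, 48.9 ± 2.60 TPM in scramble; log2 fold change -1.18, SE 0.05). RPF2, a partner of RRS1 in docking the 5S particle, rose (29.1 ± 1.16 against 15.3 ± 0.441 TPM; 0.79, SE 0.05).

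The snoRNP assembly factors went both ways, 5 lower and 4 higher of 10. The split was 3 lower and 5 higher on log2(TPM + 1), and 6 lower and 2 higher with the GC trend removed. The ATPase RUVBL1 fell (-0.51, SE 0.04) with RPAP3 (-0.36, SE 0.05), its co-chaperone, while the assembly platform NUFIP1 rose (0.51, SE 0.09). The RNA exosome and its partners, which trim rRNA ends, had 7 higher and 7 lower of 17, or 4 and 8 with the GC trend removed. EXOSC5, a core ring subunit, rose to 393 ± 35.8 TPM in CRIP1 shRNA, against 164 ± 5.74 TPM in scramble (1.13, SE 0.05), whereas EXOSC7 of the same ring fell (-0.76, SE 0.08) and the nuclease XRN2 fell (-0.60, SE 0.05).

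Ribosomal proteins, the load that these factors assemble, were lower in 48 and higher in 13 of 79 (median -0.11). On log2(TPM + 1) the split was 27 lower and 24 higher (median 0.04), and with the GC trend removed 52 lower and 6 higher (median -0.16). RPL41 fell (6387 ± 288 TPM in CRIP1 shRNA, 11174 ± 439 TPM in scramble; log2 fold change -0.93, SE 0.04) and so did RPS3A (-0.73, SE 0.03), while FAU rose (0.48, SE 0.04). The 79 ribosomal proteins summed to 189995 to 191492 TPM in CRIP1 shRNA and 192918 to 197333 TPM in scramble libraries. The mean sum was 97.8% of the scramble level, beside 85.8% for the 37 nucleolar factors. Both percents are in TPM, with the shift from the fitted scale given above.

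**Figure D5:**
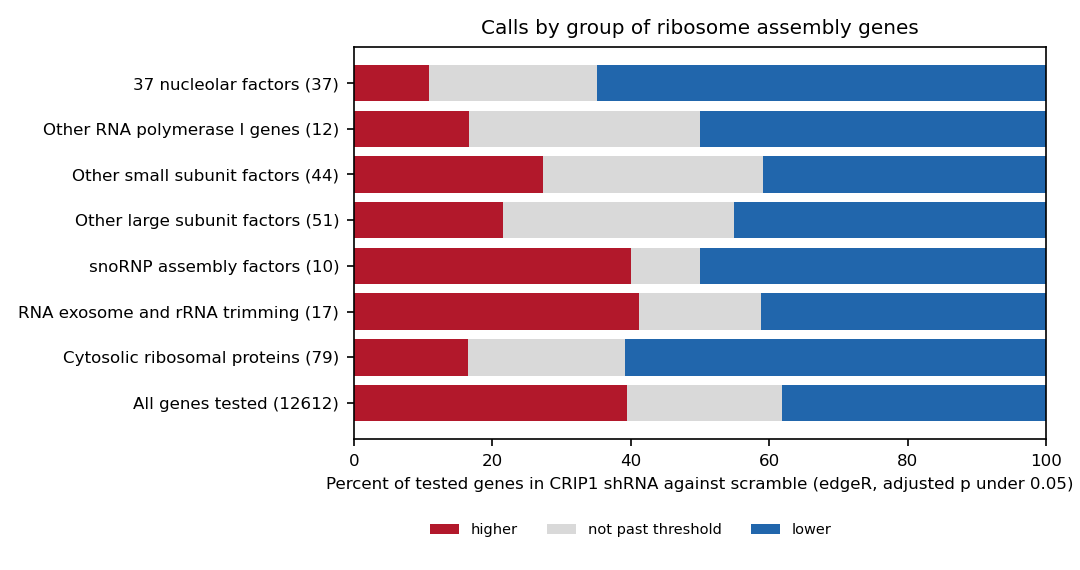
Percent of tested genes that were higher, not past the threshold or lower in CRIP1 shRNA against scramble (edgeR, adjusted p under 0.05), for the nucleolar factors, 6 other groups of ribosome assembly genes and all genes tested, with the number of genes in brackets. Lower genes made up 64.9% of the nucleolar factors and 60.8% of the ribosomal proteins, against 38.1% of all genes.

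Proliferation genes did not fall with the nucleolar factors as a group. Of 16, 7 rose and 4 fell (median 0.10). On log2(TPM + 1) 9 rose and 3 fell (median 0.22), and with the GC trend removed 5 rose and 5 fell (median -0.02). RRM2, a subunit of ribonucleotide reductase, rose (1.17, SE 0.03), as did the mitotic kinase CDK1 (0.77, SE 0.04), and cyclin CCNB1 fell (-0.55, SE 0.04).

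GC content differed between the factors that rose and those that fell, and its part in the calls was not tested beyond the GC offset. The transcripts of the 24 that fell had a median GC content of 51.5%, those of the 9 that did not pass 50.9%, and those of the 4 that rose 41.2% (longest GENCODE 29 transcript). Across the 37 genes, Pearson's r between GC content and log2 fold change was -0.43 and Spearman's rho -0.38, beside -0.06 and -0.15 over 12546 genes with a GC value. These are descriptions across genes that share the same 6 libraries. Low-GC factors shifted most when the GC trend was removed: WDR12 (40.2% GC) went to 0.12, DDX21 (41.1%) to 0.30 and WDR75 (37.7%) to -0.35. BOP1 (65.2%) stayed at -1.37 and NHP2 (57.1%) at -0.78. Exons of 13 of the 37 genes overlap an exon of a gene on the opposite strand in GENCODE 29, NHP2, NOP16 and WDR12 among them, and no strand setting is given.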

How the data were processed

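RNA of KMS11 cells was sequenced in 6 libraries prepared with a SMARTer kit, per the labels, whose titles give group and replicate number. Each gene of the deposited table has an estimated count, which need not be whole, a TPM value and an FPKM value in every library, per the file headers. RSEM 1.2.8, HISAT2 2.1.0, Bowtie2 2.2.5 and the build GRCh38.p13 appear, without roles, in the submitters' processing notes. The annotation and strand setting are not given in the sources used here.

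Counts were rounded and tested with edgeR 4.0.16 (R 4.3.3) after filterByExpr at a minimum count of 10 and TMM scaling, with group as the one term and Benjamini-Hochberg adjustment over 12612 genes. Changes are CRIP1 shRNA minus scramble, and the SE is the log2 fold change over the square root of F. The biological coefficient of variation came to 3.33%. Within a group, counts varied beyond sampling noise (mean chi-square per gene 1.62 to 4.15), so no pair was treated as a duplicate deposit; separate technical preparations of 1 culture could vary in this way too. The fit was also run on simulated data in which few genes changed. Most genes were called here, so that run does not test the scaling or the calls of these data.

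The 37 members and all gene lists were chosen with earlier results of these data known. Every member is named. Values per library are given for the largest and smallest change of each role group, for members against its majority and for the 3 most abundant, and of the lists of ribosome, MYC and proliferation genes the 2 of smallest adjusted p and the largest called folds are named. A list of snoRNA host genes had no member in the table and is not analysed here. Of the erythroid list, 1 marker is counted but not reported here by itself. Alternatives were DESeq2 size factors and upper-quartile scaling in edgeR, the DESeq2 1.42.0 Wald test, no filter, at least 50 counts in 3 libraries, limma 3.58.1 on log2(TPM + 1), log2(TPM + 0.1) and log2(FPKM + 1) for genes of at least 1 in 3 libraries, a replicate block, a loess offset on GC content (span 0.5), a 1.2-fold threshold and each library left out.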

Additional observations from a re-analysis of the deposited data

How the results depend on the processing

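The counts of all genes higher and lower stayed within 1.5 times in every alternative. Of the nucleolar factors, 9 rose on log2(TPM + 1) and on log2(TPM + 0.1), and 1 past a 1.2-fold threshold, where 16 fell. Their median was -0.08 on both TPM scales, -0.12 on log2(FPKM + 1) and -0.35 with the GC trend removed; the GC offset also recentres each library, and what each contributed was not tested. Leaving out 1 library gave 22 to 25 factors lower, 3 or 4 higher and medians of -0.24 to -0.20. The sign of 9 factors turned in some setting. On log2(TPM + 1), log2(TPM + 0.1) and log2(FPKM + 1) the values were 0.11, 0.11 and 0.06 for BYSL and for NOP58, 0.10, 0.10 and 0.05 for NOP10, 0.09, 0.09 and 0.05 for DKC1, 0.09, 0.09 and 0.04 for TSR1, and 0.07, 0.07 and 0.02 for PPAN. POLR1B was 0.02 on both TPM scales. Upper-quartile scaling gave 0.02 (BYSL), 0.01 (NOP58) and 0.00 (NOP10). GNL3 was -0.08 with the GC trend removed. Without single libraries, BYSL ranged from -0.06 to 0.04 and RRP12 from -0.02 to 0.06. Deviations from the group mean correlated at r = 0.0455, -0.00887 and -0.0135 between same-numbered libraries, and at -0.0322 to 0.0445 between the others. Not every library correlated best with its own number. Values this small cannot show whether same-numbered samples shared a culture or preparation. With the replicate number as a block 24 factors fell and 4 rose, with a median of -0.22, and no factor changed call; 4985 genes were higher and 4831 lower. Depth does not limit the detection of the factors, and 3 libraries per group limit the precision. The SE was also larger for RRP9 (0.08, at 250 to 365 counts per library) than for NPM1 (0.03, at 15062 to 21015).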
